A study of Aspergillus luchuensis with 9 samples.

Results

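The 44 genes described here are those carried by the mitochondrial genome of the koji mould Aspergillus luchuensis mut. kawachii, out of 12941 genes in the deposited expression table. They were taken by their locus tags, which all begin with EJ508, and comprise 16 protein-coding genes, 2 rRNA genes and 26 tRNA genes. RNA-seq had been carried out on a ΔhepA strain, a ΔlaeA strain and a control strain, with 3 libraries each. HepA is the Aspergillus counterpart of heterochromatin protein 1, and LaeA is a methyltransferase-like nuclear regulator of secondary metabolism. All 3 strains are given the same parental background, mut. kawachii. The sources used here name no further allele, no growth medium or time, and not whether the control carries a marker gene. They also do not say how many transformants each deletion rests on, or whether the replicates of a strain were grown separately. The p-values below therefore cover only how far these 9 libraries spread, which may be technical. The gene table used here holds no entry named hepA or laeA, so the deletions were not checked in the data.

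A fungal mitochondrial genome encodes a small core of the respiratory chain: nad subunits of NADH dehydrogenase (complex I), the cob cytochrome b of complex III, 3 cox subunits of cytochrome c oxidase (complex IV) and atp subunits of the ATP synthase. It also carries the rRNAs and tRNAs with which the organelle translates them, and it can hold further open reading frames. Most other mitochondrial proteins come from nuclear genes. Long transcripts that span several genes are made by a phage-type RNA polymerase and cut into mature RNAs, often at the tRNAs. In Saccharomyces cerevisiae these mRNAs carry no poly(A) tail. The present libraries were made from poly(A)-selected RNA with a stranded kit, so each value reports mitochondrial RNA that passed that selection.

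Expression was measured as FPKM, fragments scaled by gene length and by the mapped total of the library. For all 44 genes the listed length was the span from start to end, so any intron counts in it. Whether the FPKM were scaled by this full length or by a shorter effective length was not tested. Fragment numbers given below use the full length and may be too high for short genes. All 44 lie on the plus strand, between position 1 and position 30448 in the files' coordinates. Depth relative to control replicate 3, read from the steps between low FPKM values, lay between 0.519 and 1.03 and was lowest in ΔlaeA replicates 2 (0.66) and 3. FPKM sums ran from 1368965 to 1716065. On the first principal component of the 9988 tested genes that are neither mitochondrial nor rRNA or tRNA genes (39.1% of their variance), 3 libraries stood apart. They were replicate 2 of ΔhepA (28.7) and replicates 2 and 3 of ΔlaeA (53.6 and 72.6), against -46.4 to -9.85 in the other 6. Where leaving out these 3 libraries turned a direction or moved a difference described for the mitochondrial genes by more than 1.5 times, the value without them is given as well.

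Mitochondrial RNA in these libraries was almost entirely that of 2 genes, orf2 and the rRNA gene EJ508_mgr02. Together they made up 98.6% to 99.6% of the mitochondrial FPKM sum in each of the 9 libraries. Of the 44 genes, 17 were above 0 in at least 1 library, 15 protein-coding and both rRNA genes. Only 8 protein-coding genes were above 0 in all 9 libraries, and 14 of 16 never passed 20 FPKM. atp8, the short ATP synthase subunit 8 gene of 147 bases, was listed at 0 in every library. So were all 26 tRNA genes, which are 71 to 89 bases long. Nuclear tRNA genes, 68 to 142 bases long, were likewise at 0 in all 9 libraries in 238 of 241 cases, so a 0 at this length says little about a mitochondrial tRNA. No nuclear protein-coding gene was as short as atp8, so its 0 had nothing to be set against. Whether that 0 comes from the length of atp8 was not tested.

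**Figure D1:**
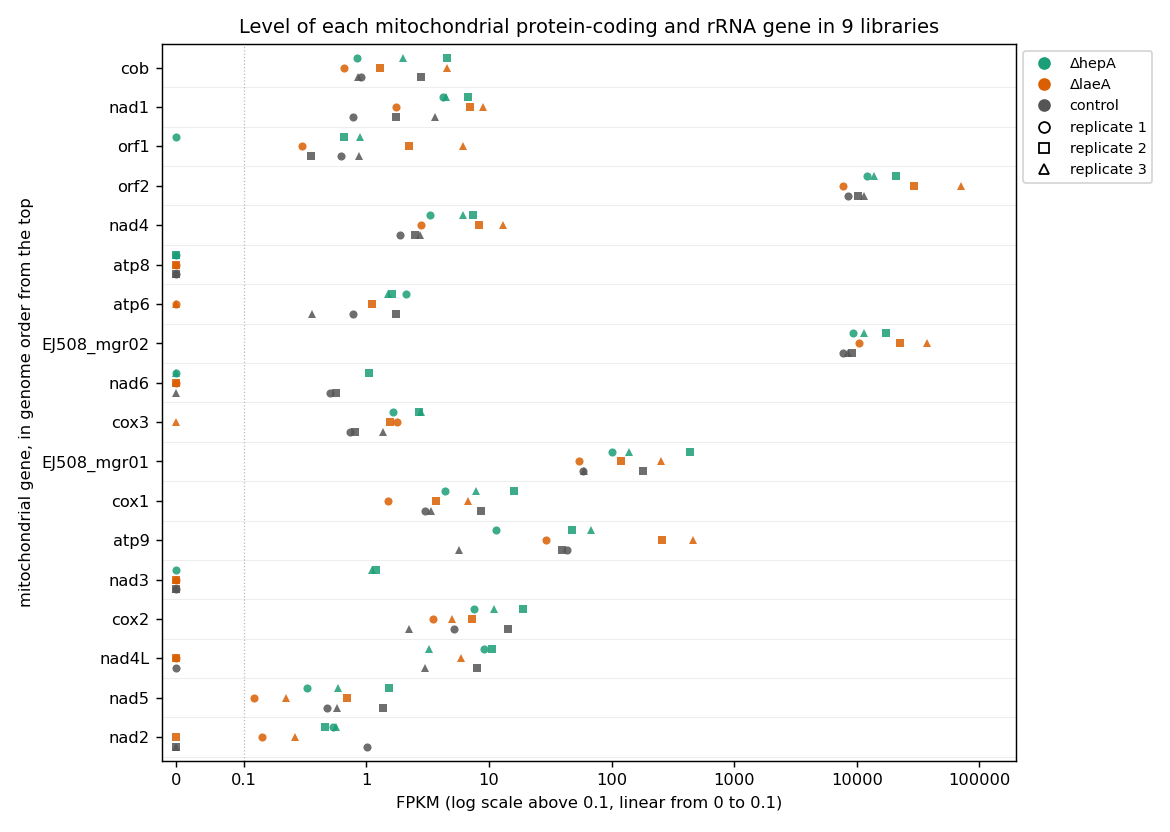
FPKM of each of the 16 protein-coding and 2 rRNA genes of the mitochondrial genome (rows, in genome order) in each library (points coloured by strain and shaped by replicate), on an axis that is logarithmic above 0.1. orf2 and EJ508_mgr02 lie at 7689 FPKM or more in every library, and 14 of the 16 protein-coding genes never pass 20 FPKM.

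orf2 (EJ508_mgp14, 3758 to 4516, 759 bases) is an open reading frame to which the reference gives no product. It stood at 12045, 21031 and 13932 FPKM in ΔhepA replicates 1 to 3. The ΔlaeA replicates had 7735, 29047 and 70313 FPKM, against 8511, 10271 and 11411 FPKM in the control replicates. Every ΔhepA library was above every control, while the ΔlaeA libraries held both the lowest and the highest value of the 9. In ΔlaeA replicate 3 orf2 was the most abundant of all 12941 genes, and its rank lay between 2 and 27 in the other libraries.

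The neighbours of orf2 did not share its level. The genes run in the order nad1 (1779 to 2828), orf1 (2837 to 3748) and orf2, with gaps of 8 and 9 bases. orf1 (EJ508_mgp15), also without a product, was at 0, 0.65 and 0.89 FPKM in ΔhepA. It was at 0.3, 2.21 and 6.16 FPKM in ΔlaeA, against 0.62, 0.35 and 0.87 FPKM in the control. Where orf1 was above 0, orf2 was 11414 to 32355 times as high per length. In those libraries orf1 rests on about 1 to 12 fragments, so the range of this factor is rough. nad4, 931 bases downstream on the same strand, was lower than orf2 by a factor of 2288 to 5376. Whether fragments of another origin were assigned to orf2 was not tested, since no sequence was used here.

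EJ508_mgr02 (9060 to 10505) is the shorter rRNA gene, of 1446 bases. It stood at 9337, 17451 and 11378 FPKM in ΔhepA and at 10474, 22634 and 37515 FPKM in ΔlaeA, against 7689, 9201 and 8556 FPKM in the control. Every library of either deletion strain was above every control, though ΔhepA replicate 1 (9337 FPKM) only narrowly passed control replicate 2 (9201 FPKM). orf2 was 1.21 to 1.29 times as high as EJ508_mgr02 in ΔhepA and 1.11 to 1.33 times in the control, so both genes were high in the same libraries. The ΔlaeA libraries were spread more widely, at 0.738, 1.28 and 1.87 times.

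EJ508_mgr01 (13582 to 18211) is the longer rRNA gene, of 4630 bases, and was far lower per length. It stood at 100.8, 434.3 and 137 FPKM in ΔhepA and at 54.0, 120.4 and 255 FPKM in ΔlaeA, against 58.7, 180.5 and 59.7 FPKM in the control. ΔhepA replicate 2, ΔlaeA replicate 3 and control replicate 2 were the highest of their strains, and the strains overlapped. EJ508_mgr02 was 92.6, 40.2 and 82.8 times as high as EJ508_mgr01 in ΔhepA. The factor was 194, 188 and 147 in ΔlaeA, against 131, 51.0 and 143 in the control. The 2 rRNA genes of 1 organelle were thus not in a constant ratio, and each ΔlaeA library had a higher factor than any other library.

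The share of the FPKM sum taken by mitochondrial genes is set by orf2 and EJ508_mgr02. Protein-coding genes took 0.82%, 1.55% and 0.915% of the sum in ΔhepA and 0.465%, 1.71% and 4.56% in ΔlaeA, against 0.573%, 0.693% and 0.735% in the control. The rRNA genes took 0.64%, 1.31% and 0.75% in ΔhepA and 0.629%, 1.33% and 2.43% in ΔlaeA, against 0.518%, 0.628% and 0.554% in the control. The tRNA genes took 0% in all 9 libraries. Without orf2 and EJ508_mgr02 the other 42 genes took 0.00542% to 0.0497%. The protein-coding share was higher in every ΔhepA library than in any control, and the rRNA share was higher in every library of either deletion strain than in any control, though ΔlaeA replicate 1 (0.629%) and control replicate 2 (0.628%) were almost equal.

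With 3 libraries against 3, an exact two-sided permutation test cannot give a p under 0.1, so none of these shares could pass a threshold of 0.05. In ΔhepA the mean protein-coding share was 1.09 ± 0.394%, against 0.667 ± 0.084% in the control (SD, n = 3; difference 0.426 percentage points, exact p = 0.1, adjusted over 6 tests 0.2). The rRNA share was 0.899 ± 0.357% in ΔhepA, against 0.567 ± 0.0562% in the control (difference 0.332 points, exact p = 0.1, adjusted 0.2). In ΔlaeA the protein-coding share was 2.25 ± 2.10%, against 0.667 ± 0.084% in the control (difference 1.58 points, exact p = 0.4, adjusted 0.6). The ΔlaeA rRNA share was 1.46 ± 0.91%, against 0.567 ± 0.0562% in the control (difference 0.896 points, exact p = 0.1, adjusted 0.2). ΔlaeA and ΔhepA overlapped in both shares (differences 1.15 and 0.564 points, exact p = 0.6 and 0.5, both adjusted 0.6; -0.403 and -0.0661 points without the 3 libraries). Without the 3 libraries that stood apart, the differences of the 1 remaining ΔlaeA library from the control mean were -0.202 points for the protein-coding and 0.0623 points for the rRNA share. Without ΔhepA replicate 2 the ΔhepA differences were 0.200 points for the protein-coding and 0.128 points for the rRNA share, and without ΔlaeA replicate 3 the ΔlaeA differences were 0.42 and 0.411 points. In bulk RNA, more mitochondria per cell and more RNA per mitochondrion cannot be told apart.

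**Figure D2:**
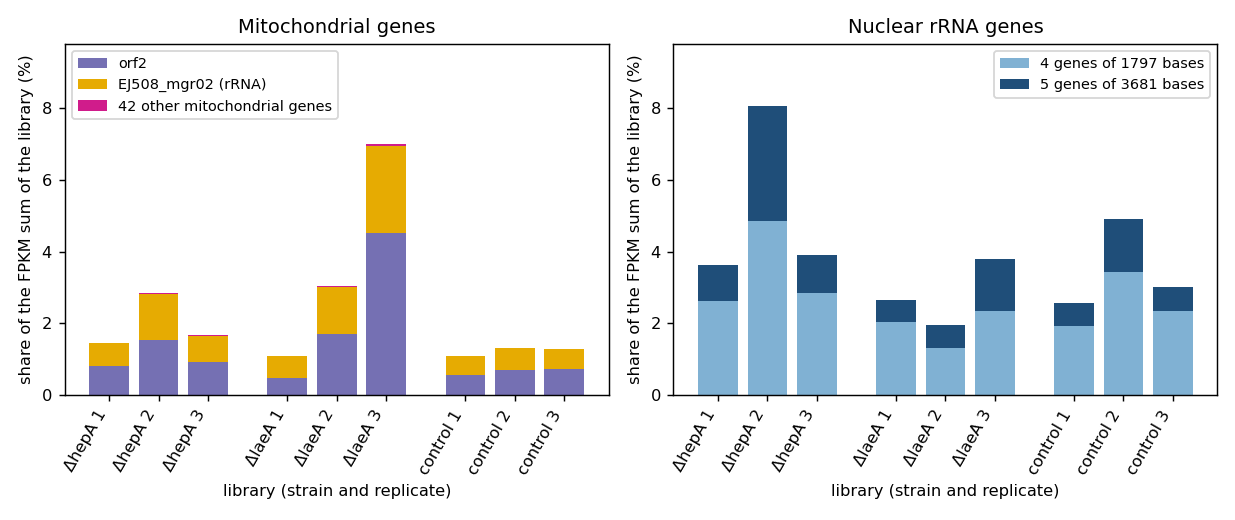
Share of each library's FPKM sum, in percent, taken by mitochondrial genes (left, stacked by orf2, EJ508_mgr02 and the other 42 genes) and by nuclear rRNA genes (right, stacked by gene length), with 1 bar per library. The mitochondrial share is highest in ΔlaeA replicate 3 and the nuclear rRNA share in ΔhepA replicate 2 (8.06%).

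Nuclear rRNA, a sign of how far the poly(A) selection removed rRNA, also differed between libraries. The 10 nuclear rRNA genes took 3.64%, 8.06% and 3.91% of the FPKM sum in ΔhepA and 2.65%, 1.96% and 3.8% in ΔlaeA, against 2.57%, 4.91% and 3% in the control. ΔhepA replicate 2 was therefore highest in nuclear rRNA and also in EJ508_mgr01. ΔlaeA replicate 2 was the lowest of the 9 in nuclear rRNA while its mitochondrial rRNA share was the second highest. The part of rRNA removal in the mitochondrial values was not tested.

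The library in which each gene was highest is given as a description made after the values were seen. Of the 17 genes above 0, 7 were highest in ΔlaeA replicate 3 (orf2, EJ508_mgr02, atp9, nad1, nad4, cob and orf1) and 7 in ΔhepA replicate 2 (EJ508_mgr01, cox1, cox2, nad3, nad4L, nad5 and nad6). The other 3 were atp6, cox3 and nad2. The placing of cob rests on 4.55 FPKM in ΔlaeA replicate 3 and 4.53 FPKM in ΔhepA replicate 2, and that of nad3 and nad6 on at most about 2 fragments. Among the controls, replicate 2 was highest for 6 of the 7 genes highest in ΔhepA replicate 2 (all but nad3, at 0 in the controls), but also for EJ508_mgr02, cob and atp6. The summed FPKM of the 5 nuclear rRNA genes of 3681 bases was likewise highest in ΔhepA replicate 2 and, among the controls, in replicate 2. Relative to their control mean they stood at 1.06, 3.09 and 1.15 in ΔhepA and at 0.738, 0.788 and 1.61 in ΔlaeA, against 0.692, 1.57 and 0.741 in the control. Per 100 FPKM of these nuclear genes, EJ508_mgr01 had 0.668, 0.993 and 0.841 FPKM in ΔhepA and 0.517, 1.08 and 1.11 FPKM in ΔlaeA, against 0.599, 0.813 and 0.568 FPKM in the control. Scaled in this way, orf2 had 79.8, 48.1 and 85.3 FPKM in ΔhepA and 73.9, 260.04 and 308 FPKM in ΔlaeA, against 86.8, 46.3 and 109 FPKM in the control. EJ508_mgr02 had 61.9, 39.9 and 69.7 FPKM in ΔhepA and 100.1, 203 and 164 FPKM in ΔlaeA, against 78.4, 41.4 and 81.5 FPKM in the control. On that scale EJ508_mgr01 varied less than as deposited, and orf2 was high in ΔlaeA replicates 2 and 3 only. EJ508_mgr02 was above every control in the 3 ΔlaeA libraries, while those of ΔhepA overlapped the control.

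**Figure D3:**
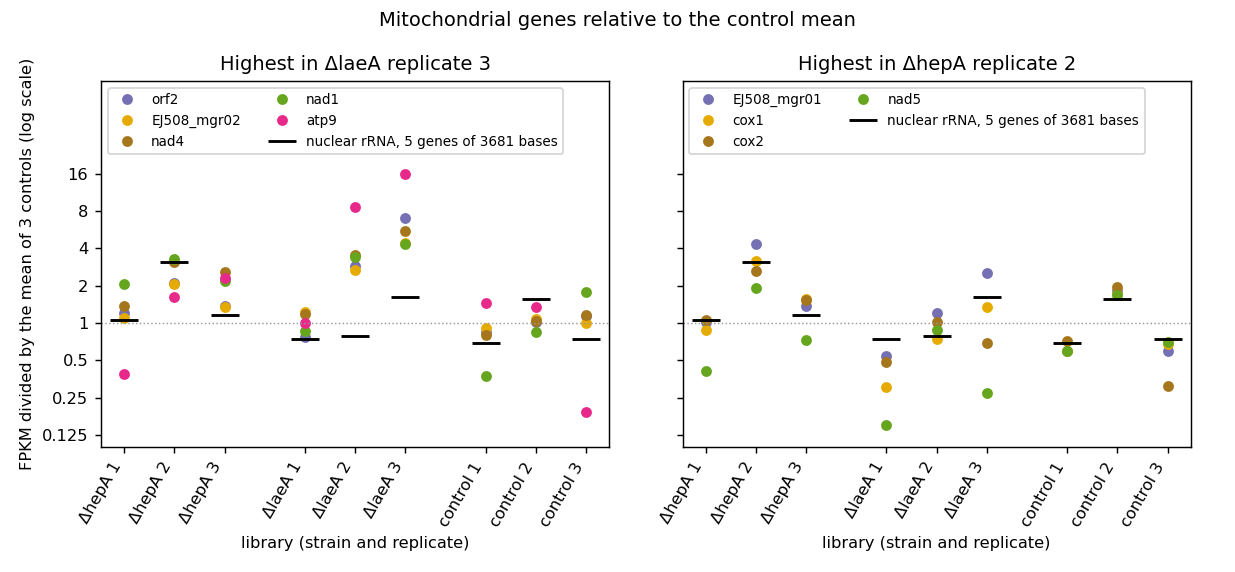
FPKM of mitochondrial genes divided by the mean of the 3 controls (logarithmic axis) in each library, for 5 genes highest in ΔlaeA replicate 3 (left) and 4 genes highest in ΔhepA replicate 2 (right). Black bars give the sum of the 5 nuclear rRNA genes of 3681 bases, which reach 3.09 in ΔhepA replicate 2 and 1.57 in control replicate 2.

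Among the ATP synthase genes, atp9 was the only one with more than a few FPKM. atp9 (EJ508_mgp07, 23762 to 24317) encodes the small proton-translocating subunit of the rotor ring, and in Neurospora crassa and Aspergillus nidulans a nuclear gene for that subunit exists as well. It stood at 11.4, 47.6 and 68.0 FPKM in ΔhepA and at 29.2, 256 and 466 FPKM in ΔlaeA, against 42.9, 39.4 and 5.66 FPKM in the control. ΔlaeA replicates 2 and 3 were far above all others, and ΔlaeA replicate 1 lay among the controls. The ratio of atp9 to cox1, its neighbour 935 bases upstream, was 19.3, 69.4 and 68.9 in ΔlaeA. It was 2.59, 3 and 8.68 in ΔhepA, against 14.4, 4.59 and 1.68 in the control. atp6 (subunit a of the proton channel) was at 2.12, 1.62 and 1.49 FPKM in ΔhepA and at 0, 1.1 and 0 FPKM in ΔlaeA, against 0.78, 1.74 and 0.36 FPKM in the control. Those atp6 values rest on about 0 to 7 fragments per library.

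The cytochrome c oxidase genes were highest in ΔhepA replicate 2 or 3. cox1 (20033 to 22826), the catalytic subunit, stood at 4.41, 15.8 and 7.83 FPKM in ΔhepA and at 1.51, 3.68 and 6.76 FPKM in ΔlaeA, against 2.99, 8.59 and 3.37 FPKM in the control. cox2 (25167 to 25928), the subunit that receives electrons from cytochrome c, stood at 7.57, 19.1 and 11.1 FPKM in ΔhepA and at 3.48, 7.32 and 5 FPKM in ΔlaeA, against 5.17, 14.2 and 2.23 FPKM in the control. In cox1 and cox2 the deletion strains each overlapped the control. cox3 (11454 to 12263), the remaining core subunit, stood at 1.65, 2.66 and 2.8 FPKM in ΔhepA and at 1.77, 1.55 and 0 FPKM in ΔlaeA, against 0.73, 0.81 and 1.37 FPKM in the control. For cox3 every ΔhepA library was above every control, on about 0 to 9 fragments per library over the 9. The 3 genes summed to 13.6, 37.6 and 21.7 FPKM in ΔhepA and to 6.76, 12.6 and 11.8 FPKM in ΔlaeA, against 8.89, 23.6 and 6.97 FPKM in the control.

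cob, the cytochrome b gene at the start of the mitochondrial sequence (1 to 1158), stood at 0.83, 4.53 and 1.97 FPKM in ΔhepA. It stood at 0.66, 1.3 and 4.55 FPKM in ΔlaeA, against 0.91, 2.8 and 0.86 FPKM in the control. These values rest on about 3 to 18 fragments per library, and the strains overlapped.

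Of the 7 complex I genes, nad4 and nad1 rested on the most fragments over the 9 libraries. These were still few, about 10 to 41 per library for nad4 and 3 to 25 for nad1. nad4 (5448 to 6914), a proton-pumping membrane subunit, stood at 3.27, 7.35 and 6.09 FPKM in ΔhepA and at 2.8, 8.33 and 13.1 FPKM in ΔlaeA, against 1.88, 2.48 and 2.74 FPKM in the control. Every library of either deletion strain was above every control, as for EJ508_mgr02. ΔlaeA replicate 1 (2.8 FPKM, about 16 fragments) and control replicate 3 (2.74 FPKM, about 15 fragments) were almost equal, however. nad1, the subunit next to the quinone site, stood at 4.22, 6.74 and 4.47 FPKM in ΔhepA and at 1.75, 6.99 and 8.88 FPKM in ΔlaeA, against 0.77, 1.73 and 3.64 FPKM in the control. The ΔhepA libraries did not overlap the controls, and ΔlaeA replicate 1 did. nad4L (26355 to 26624), whose last base is the first of nad5, stood at 9.09, 10.6 and 3.24 FPKM in ΔhepA and at 0, 0 and 5.85 FPKM in ΔlaeA, against 0, 7.96 and 3.01 FPKM in the control. These values rest on at most about 10 fragments per library, and on fewer if they were scaled by less than the full 270 bases. nad5, nad2, nad3 and nad6 never passed 1.53 FPKM. nad3 was above 0 only in ΔhepA replicates 2 and 3 (1.2 and 1.11 FPKM), on at most about 2 fragments each, which is too few to set against a 0. nad6 was above 0 in ΔhepA replicate 2 (1.04 FPKM) and control replicates 1 and 2 (0.5 and 0.56 FPKM). The 7 genes summed to 17.4, 28.9 and 16.1 FPKM in ΔhepA and to 4.81, 16 and 28.3 FPKM in ΔlaeA, against 4.64, 14.1 and 9.96 FPKM in the control.

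Within the mitochondrial sum, the 14 protein-coding genes other than orf2 and atp9 took a smaller part in ΔlaeA than elsewhere. They made up 0.158%, 0.188% and 0.165% in ΔhepA and 0.0685%, 0.0637% and 0.0467% in ΔlaeA, against 0.0971%, 0.216% and 0.0949% in the control. Each ΔlaeA library was below each of the other 6. The mitochondrial sum was itself almost entirely orf2 and EJ508_mgr02. In FPKM the 14 genes summed to 12.53, 33.18 and 50.76 in ΔlaeA, against 15.84, 42.59 and 19.02 in the control. They summed to 34.02, 73.26 and 42.1 FPKM in ΔhepA, and ΔlaeA overlapped ΔhepA and the control. With atp9 added, the parts were 0.211%, 0.31% and 0.431% in ΔhepA and 0.228%, 0.554% and 0.475% in ΔlaeA. The control had 0.36%, 0.416% and 0.123%, so the strains overlapped. The split without orf2 and atp9 was chosen after the values were seen and was given no test.

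For the tests, log2(FPKM + 1) was fitted by limma over the 10009 genes that reached 1 FPKM in 3 or more libraries. Of the mitochondrial genes 12 entered, both rRNA genes and 10 of the protein-coding ones. The other 6 protein-coding genes, atp8, nad2, nad3, nad5, nad6 and orf1, did not. A gene can enter through the strain in which it is high, so the counts below describe those 12 genes and not the 44.

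In ΔhepA against the control, all 12 genes had a higher mean of log2(FPKM + 1), and 0 passed the test. Among all tested genes 0.32% passed an adjusted p of 0.05. The largest differences were those of nad4L (1.26 ± 0.888 SE), nad1 (1.10 ± 0.522), EJ508_mgr01 (1.07 ± 0.67), cox2 (0.92 ± 0.549) and nad4 (0.92 ± 0.48). orf2 had a difference of 0.61 (95% interval -0.74 to 1.96) and EJ508_mgr02 of 0.54 (-0.36 to 1.44). By limma, adjusted p ran from 0.493 to 0.877 over the 12 genes, and 0 of 12 had an unadjusted p under 0.05, against 10.4% of all tested genes. The median difference over the 12 was 0.76, and over all tested genes -0.15, with 3735 of 10009 higher. In 5 of 12 the ΔhepA libraries lay wholly above the controls (nad1, orf2, nad4, cox3 and EJ508_mgr02), against 5.48% of all tested genes. Without ΔhepA replicate 2, the 1 library of this comparison that stood apart, the differences were 0.45 for EJ508_mgr01, 0.60 for cox2, 0.37 for orf2, 0.29 for EJ508_mgr02, 0.33 for cox1, 0.36 for atp9 and -0.030 for cob, and the median over the 12 was 0.51, with 11 of 12 higher. Without control replicate 3 that of atp9 was -0.28.

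In ΔlaeA against the control, 7 of the 12 genes had a higher mean and 5 a lower one, and again 0 passed the limma test, against 1.09% of all tested genes. The higher genes were led by atp9 (2.75 ± 1.04 SE, adjusted p = 0.169), orf2 (1.33 ± 0.612, adjusted p = 0.235), EJ508_mgr02 (1.29 ± 0.407, adjusted p = 0.124), nad4 (1.25 ± 0.48, adjusted p = 0.176) and nad1 (1.09 ± 0.522, adjusted p = 0.247). Of these, atp9, EJ508_mgr02 and nad4 had an unadjusted p under 0.05, against 21.6% of all tested genes. The lower genes were nad4L (-0.80), atp6 (-0.55), cox1 (-0.29), cox2 (-0.15) and cox3 (-0.024), with limma adjusted p from 0.436 to 0.982. The sign was positive for cox2 and cox3 with median-ratio scaling (0.028 and 0.026). The median over the 12 was 0.34, and over all tested genes -0.21, with 3731 of 10009 higher. Without the 3 libraries that stood apart the median over the 12 was -0.44, with 4 of 12 higher. With 1 library left out it lay between 0.12 (without control replicate 1) and 0.80 (without ΔlaeA replicate 1). In nad4 and EJ508_mgr02 the ΔlaeA libraries lay wholly above the controls, against 8.48% of all tested genes.

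The differences of the genes higher in ΔlaeA rest mainly on replicates 2 and 3. Without ΔlaeA replicate 1, 5 genes passed the limma test: orf2 (2.18, adjusted p = 0.0088), EJ508_mgr02 (1.78, 0.00939), nad4 (1.78, 0.0196), atp9 (3.92, 0.0201) and nad1 (1.66, 0.033). That fit called 16% of all tested genes (1601). Without the 3 libraries that stood apart, orf2 had a difference of -0.37, nad1 of -0.036, EJ508_mgr01 of -0.66, EJ508_mgr02 of 0.31, nad4 of 0.18 and atp9 of 0.41. Among the lower genes the difference without these 3 libraries was -1.72 for nad4L, -0.91 for atp6, -1.13 for cox1, -0.58 for cox2 and 0.51 for cox3. Without ΔlaeA replicate 1 it was -0.33 for nad4L, -0.37 for atp6, 0.13 for cox1, 0.073 for cox2 and -0.29 for cox3. Over all alternatives the limma adjusted p in ΔlaeA lay between 0.0088 and 0.63 for orf2 and between 0.0201 and 0.925 for atp9.

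**Figure D4:**
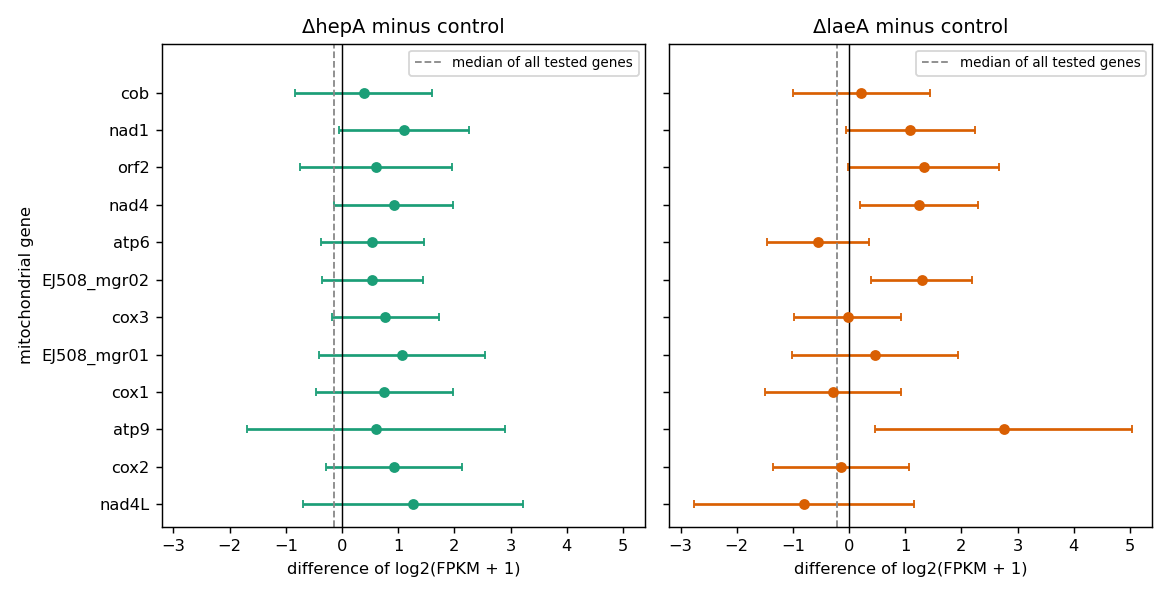
Difference of mean log2(FPKM + 1) for the 12 tested mitochondrial genes in ΔhepA minus control (left) and ΔlaeA minus control (right), with the 95% interval from limma as bars and the median of all tested genes as a dashed line. All 12 points lie above 0 in ΔhepA, 7 of 12 do in ΔlaeA, and 0 passed the adjusted test in either.

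Compared directly, ΔlaeA and ΔhepA differed in 0 of the 12 genes by limma, against 0.05% of all tested genes. The lower genes in ΔlaeA were led by nad4L (-2.06 ± 0.888 SE, adjusted p = 0.512), atp6 (-1.09 ± 0.415, adjusted p = 0.464), cox2 (-1.07 ± 0.549, adjusted p = 0.566) and cox1 (-1.05 ± 0.55, adjusted p = 0.578). The largest higher difference was that of atp9 (2.15 ± 1.04, adjusted p = 0.547). nad4L and atp6 had an unadjusted p under 0.05, against 9.49% of all tested genes. In cox2 and atp6 the ΔlaeA libraries lay wholly below those of ΔhepA, against 4.79% of all tested genes. In all 4 were higher and 8 lower, with a median of -0.39. Over all tested genes the median was -0.05, with 4574 of 10009 higher. Without ΔhepA replicate 2 the median over the 12 was 0.090 with 7 higher, and without ΔlaeA replicate 1 it was 0.073 with 6 higher. Without the 3 libraries that stood apart it was -0.85 with 2 higher, and atp9 had a difference of 0.046.

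Nuclear genes for mitochondrial functions were taken in 7 lists by gene symbol. In ΔhepA and ΔlaeA against the control, 0 members of these lists passed the limma test over all genes, against 0.32% and 1.09% of all tested genes. At an unadjusted p under 0.05 there were 4 of the 131 tested members in ΔhepA, all import or chaperone genes with a higher mean (HSP10, TIM10, TIM22 and TIM54), and 13 of 131 in ΔlaeA. Both are smaller shares than the 10.4% and 21.6% of all tested genes. The direction counts below are to be set beside those of all 10009 tested genes. Of these, 3735 were higher in ΔhepA (median -0.15) and 3731 in ΔlaeA (median -0.21). Nuclear subunits of the respiratory chain and ATP synthase (27 tested) were higher in 9 and lower in 18 in ΔhepA, with a median difference of -0.12. In ΔlaeA 14 were higher and 13 lower, with a median of 0.03. CYC1, cytochrome c and the most abundant of them, averaged 6293 ± 1225 FPKM in ΔhepA and 8714 ± 1622 FPKM in ΔlaeA, against 7023 ± 2965 FPKM in the control (SD, n = 3 each). The 27 nuclear genes of this list, CYC1 included, summed to 19188 to 28028.5 FPKM per library, and the 13 mitochondrial subunit genes other than atp9 to 12.2 to 72.6 FPKM. Because the RNA was poly(A)-selected, these sums cannot be compared as levels in the cell.

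Mitochondrial ribosomal proteins (26 tested) were higher in 20 in ΔhepA (median 0.07) and in 6 in ΔlaeA (median -0.20). MRPL2, a large-subunit protein, averaged 1285 ± 320 FPKM in ΔhepA and 1189 ± 274 FPKM in ΔlaeA, against 1074 ± 110 FPKM in the control. Genes for mitochondrial DNA, RNA and translation (19 tested) were higher in 12 in ΔhepA (median 0.12) and in 4 in ΔlaeA (median -0.30). MTG1, named after a yeast GTPase of mitochondrial ribosome assembly, stood at 721, 549 and 610.4 FPKM in ΔhepA and at 427, 1631 and 1269 FPKM in ΔlaeA, against 372, 636 and 548 FPKM in the control. Its 2 high libraries, ΔlaeA replicates 2 and 3, were the same as for orf2 and atp9 (ΔlaeA minus control 0.92, limma adjusted p = 0.244).

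Assembly factors and inner membrane proteases (19 tested) were higher in 15 in ΔhepA (median 0.10) and in 7 in ΔlaeA (median -0.06). CBP4, a complex III assembly factor in yeast, averaged 3639 ± 327 FPKM in ΔhepA and 2759 ± 1024 FPKM in ΔlaeA, against 2931 ± 753 FPKM in the control. Import and chaperone genes (26 tested, a list by symbol pattern that also took SAM2, samB and tom1, which are not import genes by name) were higher in 17 in ΔhepA (median 0.20) and in 14 in ΔlaeA (median 0.12). HSP10, the co-chaperonin of the matrix, stood at 4659, 4574 and 5258 FPKM in ΔlaeA, against 1860, 2262 and 2845 FPKM in the control (difference 1.08 ± 0.227 SE, limma adjusted p = 0.0552). The ΔlaeA libraries lay wholly above the controls, as they did in 8.48% of all tested genes. In ΔhepA HSP10 stood at 3567, 2837 and 3668 FPKM (difference 0.54, limma adjusted p = 0.427).

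Genes of the tricarboxylic acid cycle (11 tested) were higher in 5 in ΔhepA (median -0.03) and in 2 in ΔlaeA (median -0.32). IDH2, an isocitrate dehydrogenase subunit, averaged 1315 ± 282 FPKM in ΔhepA and 1149 ± 466 FPKM in ΔlaeA, against 1277 ± 43.9 FPKM in the control. Of alternative electron carriers 3 were tested (medians -0.33 in ΔhepA and 0.09 in ΔlaeA). AOX1_2, an alternative oxidase, averaged 818 ± 247 FPKM in ΔhepA and 1127 ± 422 FPKM in ΔlaeA, against 1014 ± 226 FPKM in the control.

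**Figure D5:**
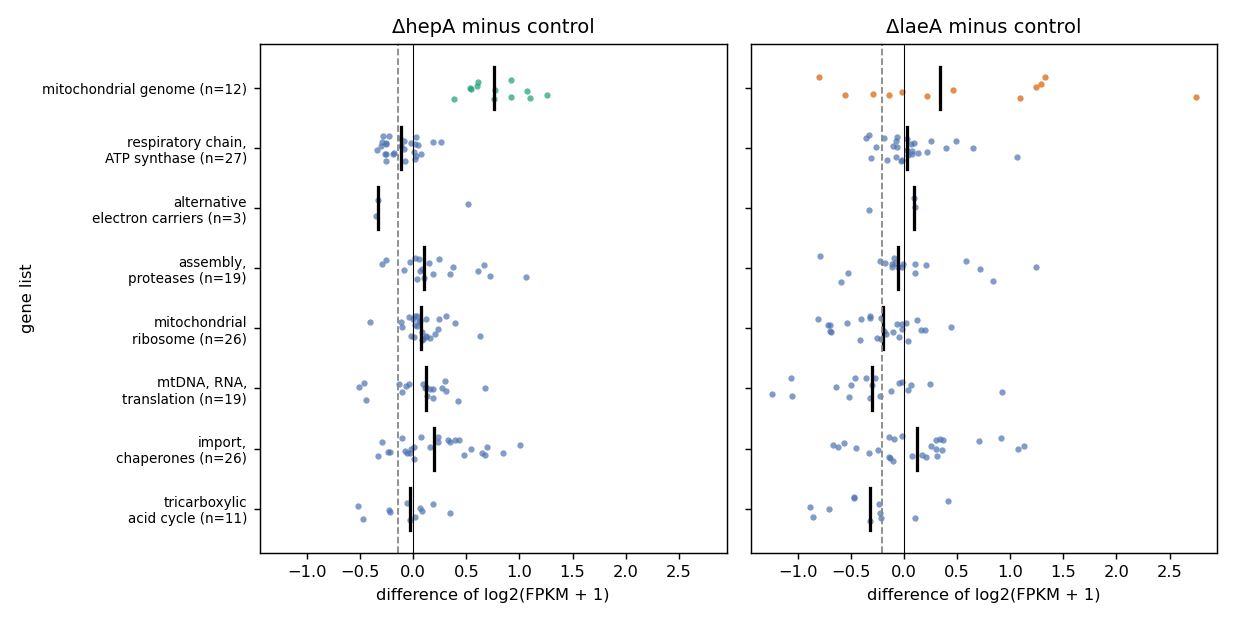
Difference of mean log2(FPKM + 1) for each tested gene (points) of the mitochondrial genome and of 7 lists of nuclear genes for mitochondrial functions, in ΔhepA minus control (left) and ΔlaeA minus control (right). Black bars mark list medians and the dashed line the median of all tested genes. The mitochondrial genes have a median of 0.76 in ΔhepA and 0.34 in ΔlaeA, and the nuclear lists between -0.33 and 0.20.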

How the data were processed

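The authors deposited 1 table of FPKM values, with 1 column per library and gene coordinates, and per the labels' protocols the libraries were poly(A)-enriched and stranded. The submitters' processing notes list, without roles, RSEM 1.3.1, STAR 2.7.9a, featureCounts 2.0.1, cutadapt 3.7, Trimmomatic 0.39, Trim Galore 0.6.7 and FastQC 0.11.9. The build they aligned to was not given in the sources used here. Each of the 12941 identifiers matched RefSeq's gene table (AkawachiiIFO4308_assembly01), from which symbols were taken, and 44 of 44 mitochondrial genes had its start and end. At most 1.80% of genes above 0 had equal values in 2 libraries. Fragment totals were not used here. Approximate fragments per gene were read from the full gene length and the steps between low values. Those steps were set on genes longer than 1000 bases, so the fragment numbers of shorter genes may be too high.

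The 10009 genes that reached 1 FPKM in 3 or more libraries were fitted on the log2(FPKM + 1) scale, which shrinks the fold changes of low genes. The model in limma 3.58.1 (R 4.3.3) had 1 mean per strain over the 9 libraries, a mean trend and 6 residual degrees of freedom. P-values are two-sided and Benjamini-Hochberg adjusted over all tested genes, with a threshold of 0.05. Scripts were tested on simulated data. Shares of the FPKM sum were compared by an exact two-sided permutation test, adjusted over 6 tests. No test was made for tRNA, which was at 0 throughout. Every mitochondrial protein-coding and rRNA gene is named, and of each nuclear list the called members and the gene with the highest mean. The genes and lists were chosen with earlier results of these data known. The lists are symbol patterns alone, so they can hold genes of other roles, and the ribosomal one also took rsmA.

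The fit was repeated with a pseudocount of 0.1 or 5, without the filter, with a filter on a mean of 5 FPKM, with median-ratio or TPM scaling, with rescaling to genes other than mitochondrial, rRNA and tRNA genes, with the replicate number as a block, with each library left out, and without the 3 libraries that stood apart. Shares were also taken over other denominators and, chosen after seeing the data, sums without orf2, without orf2 and atp9, or of EJ508_mgr01 alone. Figures were drawn with matplotlib 3.10.9, and tables made with pandas 2.3.3, scipy 1.17.1 and numpy 2.4.6 in Python 3.11.15.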

Additional observations from a re-analysis of the deposited data

Results flagged for a closer look

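nad2, a complex I subunit gene, was above the control mean in all 3 ΔhepA libraries (0.53, 0.46 and 0.56 FPKM) and below it in all 3 ΔlaeA libraries (0.14, 0 and 0.26 FPKM), with control values of 1.01, 0 and 0 FPKM. The mean in ΔlaeA minus that in ΔhepA was -0.383 FPKM. The difference was not tested, and the values rest on about 0 to 6 fragments per library.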

How the results depend on the processing

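The count of mitochondrial genes passing the limma test was 0 in all 3 comparisons. It stayed at 0 under every alternative except ΔlaeA against the control without ΔlaeA replicate 1 (leaving out 1 library gave 0 to 5). The ΔlaeA minus control protein-coding share difference (1.58 points) was -0.202 without the 3 libraries that stood apart. The ΔlaeA minus ΔhepA protein-coding share difference (1.15 points) was -0.403 without them, -0.00148 without orf2 and atp9, and -0.00616 to 2.04 with 1 library left out. The ΔlaeA minus ΔhepA rRNA share difference (0.564 points) was -0.0661 without the 3 libraries and -0.00695 for EJ508_mgr01 alone. In ΔhepA minus control, the log2 difference of cob was -0.030 without the 3 libraries and -0.030 to 0.77 with 1 library left out, and that of atp9 -0.28 to 1.35 with 1 left out. In ΔlaeA minus control, with 1 library left out, the ranges were -0.29 to 0.59 for cob, -0.67 to 0.44 for cox2, -0.68 to 0.13 for cox1, -0.29 to 0.45 for cox3 and -0.090 to 1.02 for EJ508_mgr01. Without the 3 libraries cob was at -0.52, cox3 at 0.51, orf2 at -0.37, nad1 at -0.036 and EJ508_mgr01 at -0.66. Median-ratio scaling gave 0.028 for cox2 and 0.026 for cox3, and a pseudocount of 5 gave 0.021 for cox3. orf2 in ΔlaeA minus ΔhepA was -0.74 without the 3 libraries and -0.022 to 1.57 with 1 left out. With the filter on a mean of 5 FPKM, 7 mitochondrial genes were tested, with medians of 0.76 in ΔhepA and 1.25 in ΔlaeA against the control and 0.33 in ΔlaeA minus ΔhepA. In that last comparison, the ranges with 1 library left out were -0.67 to 0.25 for cob, -0.37 to 0.56 for nad1, -0.087 to 0.86 for nad4 and -1.16 to 0.010 for EJ508_mgr01. nad4 was -0.53 without the 3 libraries, and nad1 was 0.044 with a pseudocount of 5 and 0.035 with median-ratio scaling. The cause of these sign changes was not tested.

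The numbers were not taken as pairs, since in no comparison did all 3 same-numbered pairs deviate together (r from -0.115 to 0.168 in ΔhepA and from -0.176 to 0.0803 in ΔlaeA against the control). Between the deletion strains r was 0.423 for number 1, 0.286 for number 2 and -0.22 for number 3, and the libraries numbered 1 and 2 correlated best with their own number. With the replicate block 0 mitochondrial genes passed in each comparison, and the share differences stayed at 0.426, 0.332, 1.58, 0.896, 1.15 and 0.564 points with exact p from 0.25 to 0.75. Over all genes the block called 6, 174 and 1 genes in ΔhepA, in ΔlaeA and between the deletion strains, where the fit without it called 32, 109 and 5. Other counts over all genes that differed by more than 1.5 times were, in ΔhepA, 11 with a pseudocount of 0.1, 13 with no filter, 6 with median-ratio scaling, 7 without the 3 libraries and 5 to 55 with 1 left out. In ΔlaeA they were 211 with TPM scaling, 198 with rescaling, 9 without the 3 libraries and 21 to 1601 with 1 left out. Between the deletion strains they were 1 with a pseudocount of 5, 0 without the 3 libraries and 1 to 257 with 1 left out. Depth limits the low genes: nad2, nad3, nad5, nad6, orf1, atp6, nad4L and cox3 rest on at most about 12 fragments in any library.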

Other observations

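3 genes with direct roles in mitochondrial DNA and RNA, chosen after their values were seen, were lowest in the library with the most mitochondrial RNA. RPO41, the mitochondrial RNA polymerase, stood at 7.86, 2.81 and 4.27 FPKM in ΔhepA and at 4.51, 1.5 and 0.9 FPKM in ΔlaeA, against 2.61, 3.84 and 3.26 FPKM in the control (ΔlaeA minus control -0.50, limma adjusted p = 0.526). MIP1, the mitochondrial DNA polymerase, stood at 11.2, 6.99 and 10.4 FPKM in ΔhepA and at 8.56, 5.75 and 2.8 FPKM in ΔlaeA, against 8.75, 7.72 and 9.84 FPKM in the control (-0.64, limma adjusted p = 0.339). SUV3, the helicase of the mitochondrial RNA degradation complex in yeast, stood at 54.2, 26.4 and 41.6 FPKM in ΔhepA and at 35.9, 21.2 and 19.4 FPKM in ΔlaeA, against 25.3, 39.1 and 40.5 FPKM in the control (-0.46, limma adjusted p = 0.457). All 3 had their lowest value in ΔlaeA replicate 3, where orf2 and EJ508_mgr02 had their highest. In their list of nuclear genes for mitochondrial DNA, RNA and translation, 10 of 19 tested members were lowest in that library (1 of them tied at 0) and 1, ISM1, was highest there, against 32.3% and 10.1% of all tested genes.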
